A study of Mus musculus with 12 samples.

Results

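The genes described here encode extracellular matrix proteins that hepatic stellate cells and other mesenchymal cells of the liver are known to make: the fibrillar collagen genes Col1a1, Col1a2 and Col3a1, the basement membrane collagen genes Col4a1 and Col4a2, the fibril-binding proteoglycan genes Lum and Dcn, the matricellular gene Postn, and the CCN family genes Ccn2 and Ccn1. They were taken by name from the GENCODE annotation of GRCm38, and all 10 had a row in both count tables, among 32285 genes in one and 56980 in the other. RNA was sequenced in bulk from cells sorted out of E14.5 fetal livers, with 3 libraries in each of 4 groups. Every group was Jag1 f/f, that is, homozygous for a floxed allele of the gene for the Notch ligand Jagged1, and the groups differed in the Vav-Cre transgene, whose promoter is active in blood cells. Hematopoietic stem cells (HSCs) of C57BL/6 embryos were gated as DAPI- CD45+ Lin- cKit+ Sca1+ CD48- CD150+, and their Jag1 f/f libraries without and with Vav-Cre are labelled WT and Mutant. Macrophages were sorted as CD169+ cells from Jag1 f/f embryos without and with Vav-Cre. Neither gate selects for mesenchymal cells, and CD45 is a blood cell antigen that stellate cells are not known to carry. Whether replicate libraries stem from different embryos is not stated in the labels, so p-values measure only the spread between these libraries, which may be technical.

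Collagens are secreted as trimers. Type I and type III collagen assemble into the fibrils of interstitial matrix, whereas type IV collagen forms the sheet-like network of basement membranes and of the space beneath sinusoidal endothelium. Endothelial cells make type IV collagen as well as mesenchymal cells do. Lumican and decorin bind collagen fibrils and regulate their assembly, periostin links collagen with other matrix proteins, and CCN1 and CCN2 are secreted signalling proteins whose genes are classical targets of the transcriptional coactivator YAP with its TEAD partners and of TGF-beta.

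Depth was 51982064 to 77463770 counted reads in HSC libraries, 17230019 to 24658205 in Cre negative and 2602934 to 5366990 in Cre positive macrophage libraries, so depth and genotype go together in the macrophage sort. A count of 3 was worth 0.0386 to 0.0561 CPM in HSC libraries and up to 1.08 CPM in Cre positive macrophage libraries, a floor that covers counting error only. CPM here uses TMM-scaled library sizes, set within each sort, and levels were not compared between the sorts. The targeted gene Jag1 lay at 21.1 to 52.6 CPM in Cre negative and 0 to 10.6 CPM in Cre positive macrophage libraries (exact two-sided permutation p = 0.1, the smallest that 3 against 3 libraries allow). In HSCs it overlapped, at 1.16 to 6.87 CPM without and 0 to 19.5 CPM with the Cre label (exact permutation p = 0.8). Jag1 thus does not separate the HSC genotypes, and the HSC groups are named below by their labels. In bulk RNA, fewer cells of a type and less RNA per cell cannot be told apart.

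The cell type behind the genes was checked against 20 other stellate and mesenchymal markers. In HSC libraries 14 to 18 of the 20 had reads, together 0.0537% to 0.0981% of all counted reads. In macrophage libraries 10 to 20 had reads, together 0.0348% to 0.0662%. Levels varied between these markers. The retinoid-esterifying enzyme gene Lrat, typical of stellate cells, lay at 0 to 8.04 CPM in HSC and 0 to 13.4 CPM in macrophage libraries. The PDGF receptor gene Pdgfrb lay at 0 to 24.6 and 0 to 6.68 CPM. Higher in HSC libraries were Acta2, at 21.4 to 139 CPM, and Cxcl12, at 14.1 to 113 CPM. In macrophage libraries Acta2 lay at 0 to 20.7 CPM and Cxcl12 at 6.18 to 30.1 CPM. Reln, which fetal stellate cells and lymphatic-type endothelium express, lay at 4.78 to 50.5 and 30.5 to 90.7 CPM. Of 7 mesothelial markers, 5 (Wt1, Upk3b, Upk1b, Msln and Krt19) were at 0 in every HSC library, and the 7 took 0.000888% to 0.0110% of macrophage reads. By contrast the 21 endothelial markers all had reads in all 12 libraries. Their summed share was 0.988% to 2.02% in HSC and 1.02% to 2.16% in macrophage libraries. The 12 HSC markers took 0.0968% to 0.223% of HSC reads. The 16 macrophage markers took 0.193% to 0.568% of macrophage and 0.217% to 0.343% of HSC reads. The lists differ in length and in level per gene, so their shares do not give cell numbers. HSCs and macrophages below name the sorts, not the cells behind each read. The markers of stellate cells were thus present at a low level beside those of endothelium, and the 10 genes are called matrix genes below.

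The summed share of the 10 matrix genes among counted HSC reads was 0.139% ± 0.0150 (SD, n = 3) without Cre and 0.102% ± 0.0403 (SD, n = 3) with the Cre label (exact permutation p = 0.3). In macrophages the shares were 0.341% ± 0.190 and 0.327% ± 0.0491 (exact permutation p = 1). All 10 passed the filter on low counts in both sorts. Per kilobase of merged exons, the highest mean level in HSC libraries was that of Col4a1 at 49.3 CPM per kilobase, then Ccn2 at 37.5, Col4a2 at 37.1, Lum at 34.8 and Dcn at 32.9. Below them came Ccn1 at 16.5, Postn at 7.74, Col3a1 at 6.13, Col1a2 at 2.79 and Col1a1 at 2.51 CPM per kilobase. Every pair of neighbours in this order overlapped between single libraries. With the longest coding transcript as length, Dcn came first at 109 CPM per kilobase, since its merged exons are longer than that transcript. In macrophage libraries Col4a1 at 233 and Col4a2 at 177 CPM per kilobase overlapped each other, and each of their single libraries (lowest 133) lay above every library of the other 8 genes (highest 91.2, for Col1a1).

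**Figure D1:**
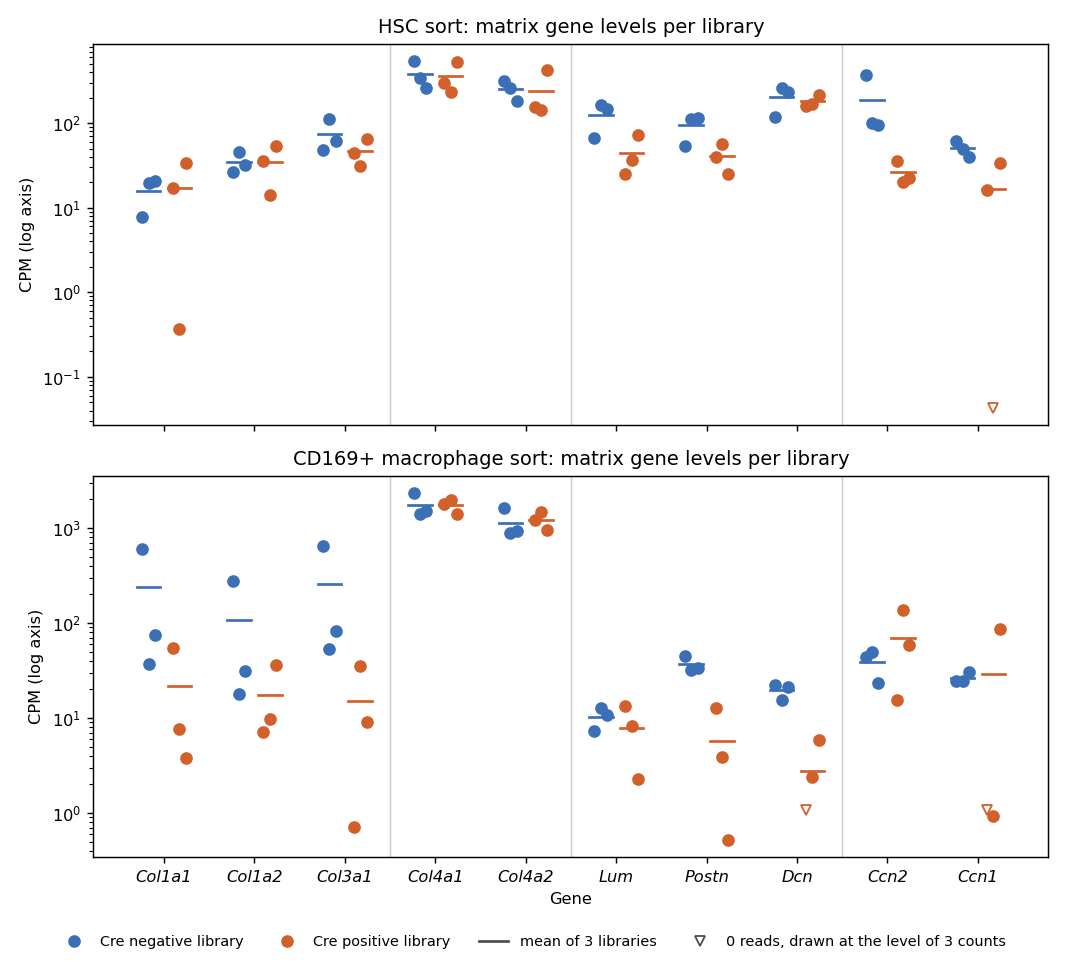
Level of each matrix gene in every library (vertical axis, CPM on a log scale), with the HSC sort above and the CD169+ macrophage sort below. Points are libraries, bars the mean of 3, and open triangles libraries with 0 reads drawn at the level of 3 counts. Col4a1 and Col4a2 lie close together in all groups, Ccn2 and Ccn1 separate the HSC groups, and Col3a1, Postn and Dcn separate the macrophage groups.

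Of the 10 genes, 0 passed the quasi-likelihood test of edgeR (Benjamini-Hochberg adjusted p under 0.05) in HSCs and 0 in macrophages, against a background of 0.0% of 13962 and 0.0% of 17806 genes tested. DESeq2, run as an alternative, called 1 of them in HSCs, Ccn2, where it called 0.953% of all genes, and 0 in macrophages, where it called 0.343%. It gave no p for Ccn1 in macrophages. An unadjusted edgeR p under 0.05 was reached by 3 members in HSCs (Ccn2, Lum and Postn) and 3 in macrophages (Col1a2, Col3a1 and Postn), where 6.39% and 5.42% of all genes had one. The log2 fold change, Cre positive minus Cre negative, was below 0 for 9 of 10 members in HSCs with a median of -0.42, against 50.3% of all genes and a median of -0.00. In macrophages it was below 0 for 7 of 10 with a median of -1.50, against 56.1% and -0.16. With upper-quartile scaling the median over all macrophage genes was -0.00, and without the filter on low counts it was -1.14. These counts over members are descriptions. Endothelial markers were lower in the same HSC libraries: 16 of 21 had the lower and 5 the higher mean with the Cre label (median -0.26), 6 had an unadjusted edgeR p under 0.05 and 0 passed. The junction gene Pecam1 measured 358, 309 and 292 CPM without and 176, 140.2 and 159 CPM with the label, without overlap (log2 fold change -1.01, SE 0.19; edgeR adjusted p = 0.689), and Tek (-0.86) and Esam (-0.68) did not overlap either. The part of endothelial RNA in the matrix gene values was not tested.

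**Figure D2:**
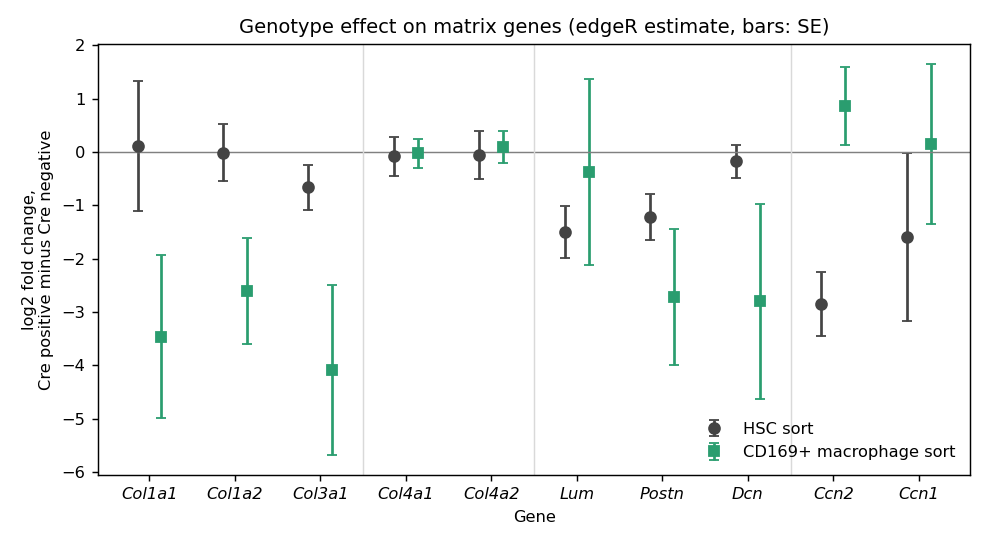
Log2 fold change of each matrix gene, Cre positive minus Cre negative (vertical axis), in HSCs (circles) and macrophages (squares), from edgeR; bars are the SE. The lowest value in HSCs is that of Ccn2 at -2.85, the fibrillar collagens lie between -4.09 and -2.61 in macrophages, and Col4a1 and Col4a2 lie near 0 in both sorts.

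Fibrillar collagen transcripts were present in both sorts and varied widely between single libraries. Col1a1 (ENSMUSG00000001506; chromosome 11, 94936224 to 94953042, plus strand), the alpha-1 chain of type I collagen, measured 7.66, 19.4 and 20.6 CPM in HSC libraries without Cre and 16.96, 0.371 and 33.9 CPM in those with the Cre label. The groups overlapped, with the lowest and the highest library both labelled Cre positive (log2 fold change 0.10, SE 1.22; edgeR adjusted p = 0.996). Its partner chain gene Col1a2 (ENSMUSG00000029661; chromosome 6, 4504814 to 4541544, plus strand) measured 26.7, 45.8 and 31.9 CPM in Cre negative and 35.5, 13.96 and 53.9 CPM in Cre positive HSC libraries. These overlapped too (log2 fold change -0.01, SE 0.54; edgeR adjusted p = 0.999), and the sign turned positive with upper-quartile scaling, at 0.01. Col3a1 (ENSMUSG00000026043; chromosome 1, 45311538 to 45349706, plus strand), the chain of type III collagen, measured 48.5, 111 and 62.1 CPM without and 43.8, 31.2 and 64.9 CPM with the Cre label. Here 2 of the 3 libraries labelled Cre positive lay below all Cre negative ones (log2 fold change -0.66, SE 0.43; edgeR adjusted p = 0.879).

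In the macrophage sort the fibrillar genes had lower values in Cre positive libraries, and 1 Cre negative library held most of their reads. Col1a1 measured 598, 37.1 and 75.5 CPM without and 54.0, 7.62 and 3.83 CPM with Cre, and Cre positive replicate 1 lay above Cre negative replicate 2 (log2 fold change -3.46, SE 1.53; edgeR unadjusted p = 0.0649, adjusted p = 1.00). Col1a2 measured 276, 17.8 and 30.8 CPM against 7.20, 9.85 and 35.7 CPM, again with overlap (log2 fold change -2.61, SE 0.99; unadjusted p = 0.0206, adjusted p = 0.773 in edgeR). Col3a1 did not overlap, at 641, 53.2 and 81.8 CPM against 0.720, 35.1 and 9.05 CPM (log2 fold change -4.09, SE 1.59; unadjusted p = 0.0442, adjusted p = 0.879 in edgeR). The value of 0.720 CPM stands on 2 reads and is under the floor of that library.

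The Cre negative macrophage library with the high fibrillar values, replicate 1, also stood apart in markers of another cell type. It held 1707 CPM of the hepatoblast gene Alb, where the other 5 macrophage libraries held 77.1 to 232 CPM, and the 15 hepatoblast markers took 0.459% of its reads against 0.0543% to 0.0948%. Its level of the macrophage gene Adgre1 was 22.3 CPM, against 60.1 to 403 CPM in the other 5. Without it the log2 fold changes were -1.35 for Col1a1, -0.46 for Col1a2 and -2.19 for Col3a1 (edgeR adjusted p = 1.00, 1.00 and 0.848). The part of these other cells in the fibrillar values was not tested.

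Other stellate and mesenchymal markers were read in the same macrophage libraries. Of 18 tested there, 3 had the higher and 15 the lower mean with Cre, with a median log2 fold change of -0.74, against 56.1% of all genes lower and a median of -0.16, and 0 passed in either direction. Markers of other cells had lower means as well: 14 of 16 macrophage markers (median -1.10), 11 of 15 hepatoblast markers (-0.94) and 7 of 9 erythroid markers (-2.41), while 17 of 21 endothelial markers had the higher mean (0.22), with 0 passing in each list. Their part in the matrix gene values was not tested. Pdgfrb, a receptor of mesenchymal cells, measured 5.16, 6.68 and 3.50 CPM without Cre and 0 in all 3 libraries with Cre (edgeR adjusted p = 0.773). The related receptor gene Pdgfra overlapped, at 53.9, 15.5 and 6.64 CPM without and 6.12, 17.8 and 5.05 CPM with Cre. The myosin light chain gene Myl9 measured 4.69, 11.9 and 12.6 CPM beside 0 in all 3 Cre positive libraries (adjusted p = 0.773 in edgeR), while the intermediate filament gene Nes, also expressed by endothelium, measured 309, 320 and 305 CPM against 196, 231 and 132 CPM (edgeR adjusted p = 0.901). A count of 3 was worth 0.522 to 1.08 CPM in the Cre positive libraries, so levels under that were not detectable. The summed share of the 20 markers was 0.0530% to 0.0662% without and 0.0348% to 0.0493% with Cre (exact permutation p = 0.1, the smallest possible). The sum includes Nes, given above, and Reln, both also expressed by endothelium. Reln measured 84.5, 89.1 and 90.7 CPM without and 74.5, 54.5 and 30.5 CPM with Cre. The share without Nes and Reln was not tested.

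Basement membrane collagen genes had reads in every library of both sorts. Col4a1 ran from 1405 to 2328 CPM in macrophage and from 236 to 537 CPM in HSC libraries. Col4a2 ran from 878 to 1603 CPM and from 142 to 427 CPM. Col4a1 (ENSMUSG00000031502; chromosome 8, 11198423 to 11312826, minus strand) and Col4a2 (ENSMUSG00000031503; chromosome 8, 11312805 to 11449287, plus strand) encode the chains of the common type IV collagen and lie head to head, with annotated starts that overlap by 22 bases. Their start regions are shown because the levels of the pair kept nearly 1 ratio in all libraries. The windows run from 250 bases before to 50 after the RefSeq start (GRCm38.p6) and share 78 bases on opposite strands, and capitals mark GGGCGG (GC box) and CCAAT on either strand.
Col4a1, chr8:11312777-11313076, minus strand: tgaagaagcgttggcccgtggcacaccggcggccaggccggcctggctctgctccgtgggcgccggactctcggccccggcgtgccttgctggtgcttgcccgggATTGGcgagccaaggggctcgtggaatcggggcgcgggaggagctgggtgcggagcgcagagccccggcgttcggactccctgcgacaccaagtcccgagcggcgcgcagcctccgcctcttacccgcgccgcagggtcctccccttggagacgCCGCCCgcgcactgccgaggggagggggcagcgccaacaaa
Col4a2, chr8:11312555-11312854, plus strand: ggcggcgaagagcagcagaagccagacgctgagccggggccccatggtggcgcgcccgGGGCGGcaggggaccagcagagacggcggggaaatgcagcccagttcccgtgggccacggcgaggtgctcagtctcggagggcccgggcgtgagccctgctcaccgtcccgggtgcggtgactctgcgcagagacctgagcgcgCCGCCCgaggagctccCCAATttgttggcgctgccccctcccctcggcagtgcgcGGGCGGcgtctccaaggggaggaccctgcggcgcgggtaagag
Both windows were rich in G and C, at 74.0% and 73.7% against a median of 52.7% over all 32851 RefSeq windows. Each held a GC box and a CCAAT box, and neither held TATAAA. The only GC box of the Col4a1 window, at positions 10 to 15 from its start, lay in the shared bases. It was the same site as the Col4a2 GC box at positions 8 to 13. Over all windows of this length, 35.7% held a GC box, 37.4% CCAAT and 13.6% TATAAA on either strand, so such matches are common and describe letters only.

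Col4a1 measured 537, 338 and 262 CPM in HSC libraries without Cre and 301, 236 and 534 CPM in those with the Cre label. Col4a2 measured 314, 258 and 181 CPM and 153, 142 and 427 CPM. The groups overlapped for both, with log2 fold changes of -0.09 (SE 0.37) and -0.06 (SE 0.45) and edgeR adjusted p = 0.996 for each. In macrophages Col4a1 measured 2328, 1410.2 and 1519 CPM without and 1800.3, 1959.7 and 1405 CPM with Cre, and Col4a2 1603, 878 and 926 CPM against 1213, 1465 and 961 CPM. The groups overlapped there too, with log2 fold changes of -0.03 (SE 0.27) and 0.09 (SE 0.30) and edgeR adjusted p = 1.00 for each. Upper-quartile scaling turned the sign of Col4a1 to 0.12. The biological coefficient of variation of Col4a1, edgeR's estimate of replicate spread, was 0.377 in macrophages against a median of 1.29 over all genes tested, and that of Col4a2 was 0.389. The median covers genes of all levels, and the pair was not compared with genes of like level. In HSCs both were also under the median of 0.561, at 0.335 and 0.392, close to those of Postn (0.396) and Col3a1 (0.403), and Dcn was lower still at 0.295.

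Type IV collagen was set beside endothelial genes, which differed among themselves in which library they peaked in. Stab2, a scavenger receptor gene of liver sinusoidal endothelium, measured 5121, 2455 and 2598 CPM in Cre negative macrophage libraries, where Col4a1 and Col4a2 summed to 3931, 2288 and 2445 CPM. In Cre positive ones Stab2 measured 3949, 4966 and 4036 CPM beside 3013, 3425 and 2366 CPM. In HSC libraries Stab2 lay at 1269.5, 1091 and 567 CPM beside 851, 595 and 443 CPM, and with the Cre label at 1058, 982 and 1569 CPM beside 454, 378 and 961 CPM. The summed type IV collagen level was thus 0.385 to 0.782 times that of Stab2 in HSC libraries and 0.586 to 0.941 times in macrophage libraries. The library highest in type IV collagen was also the highest in Stab2 in each sort, but not in Lyve1, Pecam1 or the endothelial marker share. In HSCs that library, Cre positive replicate 3, held 1704 CPM of Lyve1 and 159 CPM of Pecam1, where Cre negative replicate 1 held 4262 and 358 CPM, and its 21 endothelial markers took 1.24% of reads against 2.02%. In macrophages the endothelial share (2.16%), Lyve1 (1206 CPM) and Pecam1 (614 CPM) were highest in Cre positive replicate 2, whereas type IV collagen was highest in Cre negative replicate 1. Cre negative replicate 1 had the next highest share, 2.05%, and Cre positive replicate 2 the next highest type IV collagen, 3425 CPM. In Cre negative replicates 2 and 3 the share was 1.02% and 1.05% beside 2288 and 2445 CPM. In Cre positive replicates 1 and 3 it was 1.73% and 1.64% beside 3013 and 2366 CPM. Which cells the collagen reads came from was not tested.

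**Figure D3:**
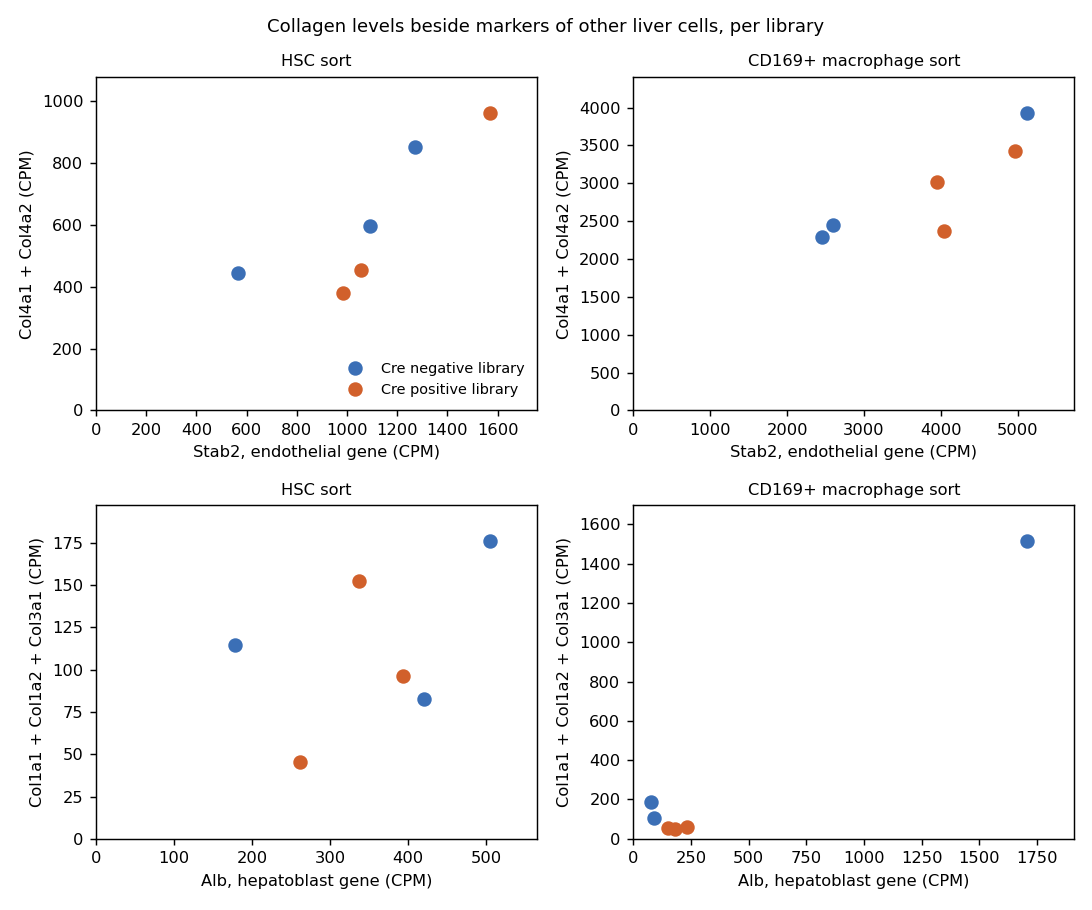
Summed level of basement membrane collagen genes against Stab2 (upper row) and of fibrillar collagen genes against Alb (lower row), in CPM, with HSC libraries on the left and macrophage libraries on the right; each point is 1 library. The library highest in type IV collagen is highest in Stab2 in each sort but not in the share of the 21 endothelial markers. In macrophages that library has the next highest share, 2.05% against 2.16%. 1 Cre negative macrophage library stands apart with 1515 CPM of fibrillar collagens and 1707 CPM of Alb.

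Fibrillar and basement membrane collagens were set against each other within each library, per kilobase of merged exons, so that scaling between libraries cancels. In HSCs the ratio of Col1a1, Col1a2 and Col3a1 to Col4a1 and Col4a2 was 0.0692, 0.213 and 0.192 without Cre and 0.156, 0.0822 and 0.118 with the Cre label, with overlap. The log2 ratio was -2.82 ± 0.90 and -3.12 ± 0.46 (SD, n = 3 each; exact permutation p = 0.6). In macrophages the ratio was 0.322, 0.0389 and 0.0650 without and 0.0211, 0.0115 and 0.0132 with Cre, so that all 3 Cre positive libraries lay below all Cre negative ones. The log2 ratio was -3.42 ± 1.59 and -6.08 ± 0.46 (SD, n = 3 each), a difference of -2.66 (exact two-sided permutation p = 0.1, the smallest possible, and 0.6 adjusted over 12 ratio comparisons). Without Cre negative replicate 1, the library rich in Alb, the difference was -1.77, and the groups still did not overlap. The difference between the genotype effects of the 2 sorts was -2.37 on the log2 scale, with an exact permutation p = 0.13 over 400 relabellings within sorts.

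Gene pairs of 1 collagen type differed in how closely they kept together. The Col4a1 to Col4a2 ratio per kilobase ran from 1.11 to 1.74 in the 6 HSC libraries, a span of 1.57-fold, and from 1.19 to 1.45 in the 6 macrophage libraries, a span of 1.23-fold. The Col1a1 to Col1a2 ratio ran from 0.0512 to 1.22 in HSC libraries, a span of 23.9-fold, and from 0.207 to 13.9 in macrophage libraries, a span of 67.1-fold. In Cre negative macrophage libraries alone it was steady, at 4.11, 3.95 and 4.63, and the wide values all lay in Cre positive libraries, at 13.9, 1.47 and 0.207. Those 3 values rest on 20 to 205 reads of Col1a2 and 22 to 150 reads of Col1a1. In HSCs 1 library decided the span: Cre positive replicate 2, with 26 reads of Col1a1 and 979 of Col1a2.

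**Figure D4:**
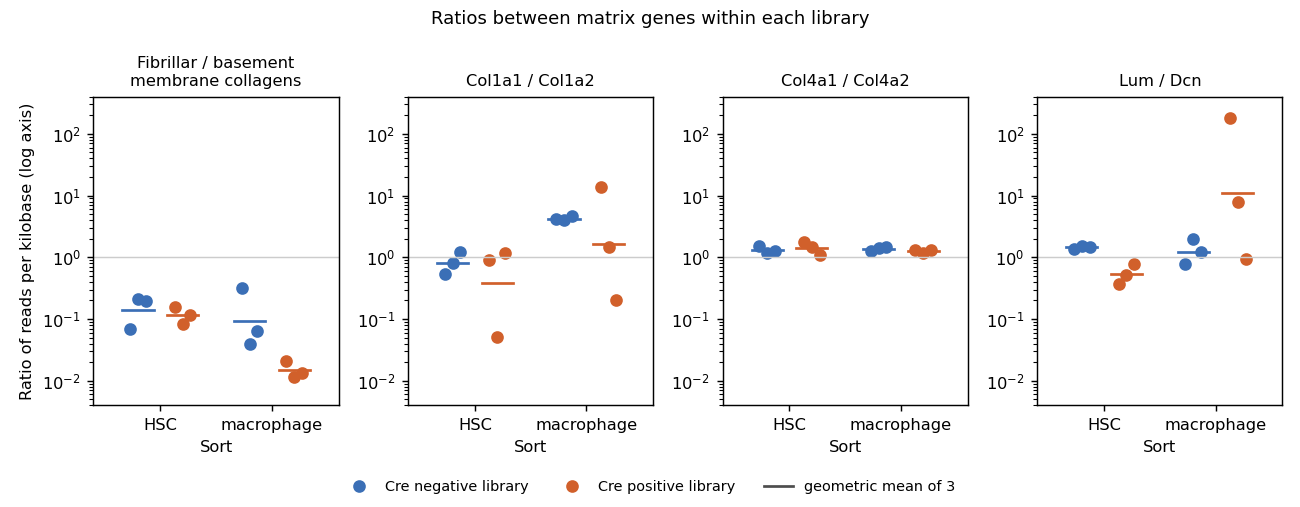
Ratio of reads per kilobase between matrix genes within each library (vertical axis, log scale) by sort; points are libraries, bars the geometric mean of 3. Fibrillar to basement membrane ratios of Cre positive macrophage libraries lie at 0.0115 to 0.0211, below all Cre negative ones, Col4a1 to Col4a2 stays between 1.11 and 1.74 throughout, and Lum to Dcn separates the HSC groups.

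The start regions of Col1a2 and Col3a1 are shown as a contrast to those of the type IV pair, with the same motifs and also TATAAA and CATTCC, the core letters bound by TEAD factors, in capitals. The Col1a2 window is that of the RefSeq start, 804 bases downstream of the GENCODE gene start.
Col1a2, chr6:4505368-4505667, plus strand: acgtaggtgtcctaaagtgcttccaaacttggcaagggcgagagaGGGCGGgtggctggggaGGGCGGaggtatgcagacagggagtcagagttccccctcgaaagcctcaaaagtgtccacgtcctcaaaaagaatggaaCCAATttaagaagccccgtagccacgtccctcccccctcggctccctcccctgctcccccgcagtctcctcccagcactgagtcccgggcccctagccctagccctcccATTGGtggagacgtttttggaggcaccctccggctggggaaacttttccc
Col3a1, chr1:45311288-45311587, plus strand: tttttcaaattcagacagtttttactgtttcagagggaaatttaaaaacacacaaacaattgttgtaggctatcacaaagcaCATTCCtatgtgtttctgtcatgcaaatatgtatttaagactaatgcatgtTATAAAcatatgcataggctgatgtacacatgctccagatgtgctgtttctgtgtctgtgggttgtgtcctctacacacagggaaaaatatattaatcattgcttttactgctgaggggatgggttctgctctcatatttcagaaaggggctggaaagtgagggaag
That of Col1a2 held 61.0% G and C, a pair of GC boxes and a pair of CCAAT boxes, whereas that of Col3a1 held 37.7% G and C, with TATAAA and CATTCC and neither GC nor CCAAT box. CATTCC stood in 14.7% of all windows on either strand. Among the matrix genes, windows were found for Col1a2, Col3a1, Col4a1, Col4a2, Postn and Ccn1, 6 of 10, and not for Col1a1, Lum, Dcn and Ccn2.

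The proteoglycan genes lie side by side on chromosome 10, yet had different values in the HSC sort. Lum (ENSMUSG00000036446; 97565128 to 97572703, plus strand), which encodes lumican, begins 46984 bases after the end of Dcn (ENSMUSG00000019929; 97479609 to 97518143, plus strand), which encodes decorin. Lum measured 67.0, 165 and 145 CPM in HSC libraries without Cre and 24.9, 36.6 and 71.5 CPM in those with the Cre label. Only Cre positive replicate 3 reached the Cre negative range (log2 fold change -1.50, SE 0.49; unadjusted p = 0.0155, adjusted p = 0.689 in edgeR). Dcn measured 119, 262 and 232 CPM and 158, 168 and 215 CPM, inside the Cre negative range throughout (log2 fold change -0.18, SE 0.31; edgeR adjusted p = 0.996). The Lum to Dcn ratio per kilobase was 1.35, 1.505 and 1.49 without Cre and 0.376, 0.519 and 0.793 with the Cre label, without overlap. The log2 ratio differed by -1.43 (exact permutation p = 0.1, the smallest possible, and 0.6 adjusted over 12 ratio comparisons).

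In macrophages both proteoglycan genes were scarce. Lum measured 7.30, 12.8 and 10.8 CPM without and 13.3, 8.18 and 2.26 CPM with Cre, overlapping (log2 fold change -0.38, SE 1.74; edgeR adjusted p = 1.00). Dcn measured 22.4, 15.4 and 21.3 CPM without and 0, 2.42 and 5.92 CPM with Cre, and did not overlap (log2 fold change -2.80, SE 1.82; unadjusted p = 0.143, adjusted p = 1.00 in edgeR). The Cre positive values of Dcn stand on 0, 13 and 34 reads, and those of Lum on 37, 44 and 13 reads. The Lum to Dcn ratio therefore ran from 0.779 to 179 in this sort and is given as a description.

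Postn (ENSMUSG00000027750; chromosome 3, 54361109 to 54391037, plus strand), which encodes periostin, was lower on average with the Cre label in both sorts. In HSCs it measured 54.2, 113 and 115 CPM without and 39.3, 56.9 and 25.3 CPM with the label, where only the value of 56.9 reached the Cre negative range (log2 fold change -1.22, SE 0.43; unadjusted p = 0.0218, adjusted p = 0.708 in edgeR). In macrophages it measured 45.1, 32.2 and 33.2 CPM without and 12.6, 3.905 and 0.522 CPM with Cre, without overlap (log2 fold change -2.71, SE 1.27; unadjusted p = 0.0480, adjusted p = 0.909 in edgeR). The Cre positive macrophage values stand on 35, 21 and 3 reads. The 3 Cre negative macrophage libraries stood close together in Postn, including the library rich in Alb and fibrillar collagen.

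Among the 10 matrix genes, only the CCN genes separated the HSC groups without overlap. Ccn2 (ENSMUSG00000019997; chromosome 10, 24595442 to 24598683, plus strand), which encodes connective tissue growth factor, measured 372, 99.7 and 94.6 CPM in HSC libraries without Cre and 35.6, 20.3 and 22.5 CPM in those with the Cre label. The groups did not overlap, and Cre negative replicate 1 stood far above the other two (log2 fold change -2.85, SE 0.59; unadjusted p = 0.00140, adjusted p = 0.689 in edgeR; exact permutation p = 0.1). Without that library the log2 fold change was -1.90 (edgeR adjusted p = 1.00). DESeq2 gave -2.82 with an adjusted p of 0.000182. That library also held the most Lyve1 of the sort, at 4262 CPM against 1679 to 2475 CPM, and its 21 endothelial markers took 2.02% of reads against 0.988% to 1.40% in the other 5. The part of endothelial RNA in the Ccn2 values was not tested.

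Ccn1 (ENSMUSG00000028195; chromosome 3, 145646976 to 145649981, minus strand), also called CYR61, measured 61.6, 48.9 and 40.0 CPM in HSC libraries without Cre and 16.1, 0 and 33.8 CPM in those with the Cre label, also without overlap. The library at 0 had a floor of 0.0428 CPM. Its spread gave no call (log2 fold change -1.59, SE 1.57; edgeR adjusted p = 0.975). Among all genes tested in HSCs, 9.33% lay lower in Cre positive libraries without overlap, which is the background for the 2 of 10 matrix genes, Ccn2 and Ccn1, that did so. In macrophages 3 of 10, Col3a1, Postn and Dcn, lay lower without overlap, where 11.8% of all genes did. None of the 10 lay higher without overlap in either sort, where 6.37% and 2.27% of all genes did.

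The start region of Ccn1 is shown because its promoter is a textbook target of TEAD factors; capitals mark the motifs named above.
Ccn1, chr3:145649936-145650235, minus strand: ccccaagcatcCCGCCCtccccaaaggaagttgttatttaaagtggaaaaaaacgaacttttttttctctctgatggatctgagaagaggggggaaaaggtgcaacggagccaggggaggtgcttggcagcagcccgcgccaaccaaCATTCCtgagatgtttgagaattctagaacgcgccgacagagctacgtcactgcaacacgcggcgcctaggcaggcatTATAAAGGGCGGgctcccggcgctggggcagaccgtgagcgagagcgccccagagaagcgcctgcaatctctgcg
CATTCC lay at positions -103 to -98 relative to the RefSeq start and TATAAA at -25 to -20. A GC box followed directly on the TATA box. No CArG box, the site of serum response factor, was matched in any of the matrix gene windows, where 1.63% of all windows held one. A match or its absence describes only these 300 bases.

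In macrophages the CCN genes overlapped between genotypes and 1 or 2 Cre positive libraries carried the high values. Ccn2 measured 43.8, 48.9 and 23.5 CPM without and 15.5, 137 and 58.3 CPM with Cre (log2 fold change 0.86, SE 0.73; edgeR adjusted p = 1.00). Ccn1 measured 24.3, 24.2 and 30.7 CPM without and 0, 0.930 and 86.7 CPM with Cre, so the lowest and the highest values were both Cre positive (log2 fold change 0.15, SE 1.51; edgeR adjusted p = 1.00). Without Cre positive replicate 3, Ccn1 gave -5.72 (edgeR adjusted p = 0.213), and without Cre positive replicate 2, Ccn2 gave -0.10 (adjusted p = 0.975 in edgeR). The exons of Ccn2 and of its antisense transcript Gm15270 overlap by 665 bases. Their reads there cannot be told apart, since the strand setting is not given. Gm15270 itself had 280 reads over all HSC and 461 over all macrophage libraries.

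Whether the genotype effects differed between the sorts was tested as an interaction over all 12 libraries. Of the 10 members 0 passed, where 0.0696% of 20128 genes did, and 4 had an unadjusted p under 0.05, where 8.62% of all genes did. Ccn2 had the smallest p, with an effect 3.70 higher in macrophages on the log2 scale (SE 0.95; unadjusted p = 0.000811, adjusted p = 0.237 in edgeR). Dcn differed the other way, by -2.60 (SE 0.89; unadjusted p = 0.00826, adjusted p = 0.490 in edgeR), as did Col1a2 by -2.70 and Col3a1 by -3.51 (edgeR adjusted p = 0.570 and 0.576). Without Cre positive macrophage replicate 1, Ccn2 passed at 4.18 (edgeR adjusted p = 0.00635), and without Cre positive macrophage replicate 3, Dcn passed at -3.65 (edgeR adjusted p = 0.0336). For Col4a1 and Col4a2 the difference was 0.03 (SE 0.46) and 0.12 (SE 0.54).

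Other matrix genes were read from lists of related function, in which 0 genes passed edgeR's test after adjustment in either sort and direction. Among 24 genes of interstitial matrix tested in HSCs, 12 had the higher and 12 the lower mean with the Cre label, with a median log2 fold change of -0.02. Biglycan, a proteoglycan related to decorin, lay lower without overlap: Bgn measured 106, 96.6 and 121 CPM against 64.8, 46.2 and 76.6 CPM (edgeR adjusted p = 0.732). Tgfbi, a TGF-beta induced matrix protein, measured 53.4, 29.1 and 56.1 CPM against 14.7, 8.70 and 36.2 CPM. Fbln5, an elastic fibre protein, measured 40.5, 33.2 and 23.0 CPM against 0, 0.0570 and 8.85 CPM. In macrophages 10 of 26 had the higher and 16 the lower mean, with a median of -0.32. Tgfbi measured 35.9, 188 and 188 CPM against 10.8, 47.4 and 46.3 CPM (log2 fold change -1.97, SE 0.67; edgeR adjusted p = 0.773). Aspn, another small proteoglycan, measured 10.3, 3.03 and 4.52 CPM against 0 in all 3 Cre positive libraries, so only Cre negative libraries carried it past the filter. The elastin gene Eln measured 11.9, 2.01 and 2.54 CPM against 0, 0 and 0.174 CPM.

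Other basement membrane genes did not move as 1 group. In HSCs 5 of 13 had the higher and 8 the lower mean (median -0.09). The nidogen gene Nid2 measured 130, 119 and 80.9 CPM against 57.9, 37.3 and 75.3 CPM, lower without overlap, while perlecan (Hspg2) measured 80.0, 48.9 and 37.6 CPM against 55.4, 97.2 and 159.6 CPM and agrin (Agrn) 22.8, 51.5 and 11.2 CPM against 72.8, 35.6 and 77.4 CPM. In macrophages 11 of 19 had the higher and 8 the lower mean (median 0.20). Col4a3, a type IV collagen chain of specialised basement membranes, lay higher without overlap, at 0.579, 4.72 and 2.67 CPM against 29.5, 21.2 and 22.8 CPM (log2 fold change 3.20, SE 1.58; edgeR adjusted p = 0.983). The laminin gene Lamb1 measured 62.7, 36.0 and 21.2 CPM against 16.6, 0.930 and 16.9 CPM, and Sparcl1 31.5, 4.72 and 6.69 CPM against 0, 0 and 4.52 CPM.

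Collagen folding and crosslinking genes had mostly lower values with the Cre label in HSCs, where 6 of 19 had the higher and 13 the lower mean (median -0.52, against -0.00 over all genes), in the libraries where 16 of 21 endothelial markers were also lower. The lysyl hydroxylase gene Plod1 measured 263, 245 and 159 CPM against 96.4, 102 and 129.8 CPM, without overlap (log2 fold change -1.02, SE 0.26; unadjusted p = 0.00457, adjusted p = 0.689 in edgeR). Fkbp10, a collagen chaperone, measured 275, 142 and 105 CPM against 102, 89.3 and 89.0 CPM, and the chaperone gene Serpinh1 (HSP47) 1056, 667 and 423 CPM against 502, 408 and 369 CPM. Fkbp10 and Serpinh1 were both highest in Cre negative replicate 1, the library with the highest endothelial share. The endothelial gene Stab2 went the other way, with a mean of 976 CPM without and 1203 CPM with the label. The part of endothelial RNA in the values of these folding and crosslinking genes was not tested. In macrophages 10 of 20 lay on each side (median -0.04), with Plod3 higher without overlap, at 31.0, 53.4 and 41.0 CPM against 65.5, 94.6 and 122 CPM. Mia3, which exports collagen from the endoplasmic reticulum, measured 304, 243 and 198 CPM against 151, 189.7 and 99.4 CPM, and Ppib 69.9, 238 and 189 CPM against 63.3, 113 and 93.1 CPM.

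Matrix turnover genes divided likewise. In HSCs 3 of 10 had the higher and 7 the lower mean (median -0.48): the gelatinase gene Mmp2 measured 57.2, 73.0 and 42.0 CPM against 38.2, 32.0 and 26.0 CPM, without overlap, and the membrane protease gene Mmp14 597, 414 and 400.5 CPM against 286, 409 and 279.7 CPM. The protease inhibitor gene Timp2 measured 48.6, 71.1 and 126 CPM against 106, 113 and 109 CPM. In macrophages 7 of 11 had the higher and 4 the lower mean (median 0.29), with Timp2 at 16.3, 98.3 and 79.2 CPM against 19.1, 32.9 and 4.18 CPM. The other inhibitors lay higher without overlap: Timp3 measured 65.1, 53.0 and 25.8 CPM against 74.1, 122 and 102 CPM, and Timp1 0, 7.47 and 2.77 CPM against 19.1, 25.1 and 26.1 CPM.

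Since Ccn1 and Ccn2 are targets of YAP, the factors and other targets of that pathway were read beside them. In HSCs 6 of 17 had the higher and 11 the lower mean with the Cre label (median -0.47). Ajuba, a LIM protein of the pathway, measured 153, 67.8 and 73.1 CPM against 31.9, 53.4 and 62.9 CPM. The target gene Amotl2 measured 109, 60.9 and 30.8 CPM against 36.6, 31.8 and 22.0 CPM, and the receptor tyrosine kinase gene Axl 55.2, 53.7 and 113 CPM against 52.2, 9.91 and 28.4 CPM. Their edgeR adjusted p-values were 0.779, 0.781 and 0.807. In macrophages 9 of 18 lay on each side (median -0.01), with Axl at 49.8, 338 and 338 CPM against 29.9, 51.7 and 127 CPM. Tead2 measured 133, 56.4 and 72.1 CPM against 72.7, 34.96 and 6.09 CPM. Tead3 measured 15.8, 3.97 and 3.87 CPM against 1.08, 1.30 and 0 CPM. Among Cre negative macrophage libraries, Axl, Tgfbi and Timp2 were lowest in replicate 1, as was Adgre1 at 22.3 beside 403 and 375 CPM. The part of macrophage RNA in the values of Axl, Tgfbi and Timp2 was not tested. Of the other CCN family genes, Ccn4 measured 16.1, 7.53 and 3.66 CPM in Cre negative HSC libraries against 0.206, 0.884 and 0 CPM, and Ccn3 6.49, 6.80 and 0 CPM against 6.68, 11.5 and 0 CPM. In macrophages Ccn3, Ccn4 and Ccn6 reached at most 11.2, 9.27 and 16.4 CPM, with groups that overlapped.

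Among the stellate markers in HSCs, 5 of 16 had the higher and 11 the lower mean (median -0.23). The chemokine gene Cxcl12 measured 70.1, 113 and 105 CPM against 14.1, 40.0 and 62.4 CPM, without overlap. Hand2, a transcription factor of fetal liver mesenchyme, stayed at or below 1.25 CPM in every HSC library.

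Likeness of pattern was measured as Pearson's r over the 6 libraries of a sort with the mean standardised level of Col1a1, Col1a2, Col3a1, Lum, Postn and Dcn. In HSCs the 5 genes most alike of 11282 were Pds5a (r = 0.998), Tcf25 (0.986), Urod (0.979), 1110008L16Rik (0.971) and Cnot3 (0.960), while Cxcl12 had r = 0.672, Pdgfrb r = 0.572 and Des r = 0.476. In macrophages those of 12569 were Cdc37l1 (r = 0.995), Tmem9 (0.993), Eogt (0.993), H2afj (0.992) and Slc25a47 (0.985), while Des had r = 0.820, Pdgfra r = 0.693 and Cxcl12 r = 0.0523. Such values over the 6 libraries of a sort describe only those libraries, and in macrophages depth goes together with genotype. No mesenchymal marker was among the 5 most alike in either sort.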

How the data were processed

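The deposited values were raw read counts per Ensembl gene, 1 table for each sort, which the authors made from SMART-Seq libraries. Per the submitters' processing notes, the HSC reads were handled with STAR 2.7.6a and featureCounts of Subread 2.0.1 on GRCm38; for the macrophage counts the notes name mm10 only (aligner and counter: not given in the sources used here). Strand setting, treatment of multimapping reads and annotation release are not given either, so reads of overlapping genes cannot be told apart. Gene names came from GENCODE M21 (GRCm38), which named all but 50 genes of the HSC table and 4855 of the macrophage table. The tables held 0 rows without a gene and 0 sample columns without a sample.

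Libraries were grouped by the labels, and each sort was fitted alone over its 6 libraries in edgeR 4.0.16 (R 4.3.3) with filterByExpr, TMM scaling and the quasi-likelihood test, without a replicate block, calling genes at a Benjamini-Hochberg adjusted p under 0.05. A fit over both sorts tested the interaction of genotype and sort. DESeq2 1.42.0, other scalings, no filter, a replicate block, macrophage libraries thinned to equal depth and leaving out each library were the alternatives; a length from the longest coding transcript was added after seeing the data. Ratios added 0.5 reads to each gene, and single values were compared by exact two-sided permutation tests. Promoter windows came from RefSeq (GRCm38.p6). Intervals and floors of 3 counts cover counting error only. The fits were tested on simulated data.

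The genes and lists were chosen with earlier results of these data known. All 10 matrix genes are described; of each related list, up to 3 genes with the smallest unadjusted p in a sort are named, and the 5 genes with a mean of at least 5 CPM whose log2(CPM + 1) pattern is most like the mesenchymal profile. Marker genes and Jag1 are given as levels. 1 gene that this rule names is not reported here.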

Additional observations from a re-analysis of the deposited data

How the results depend on the processing

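Among all genes, edgeR called 0 in HSCs under every scaling, without the filter, with the replicate block and without any single library (892 had an unadjusted p under 0.05), while DESeq2 called 133. In macrophages edgeR called 0 (965 at an unadjusted p under 0.05), 21 without the filter, 13 with the replicate block, 61 in DESeq2 and 1 to 34 without single libraries. The interaction called 14 genes, 9 with upper-quartile scaling, 96 with the replicate block and 6 to 210 without single libraries. The cause of these moves was not tested.

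Replicate numbers are shared by the genotypes, but same-numbered libraries did not deviate together: the correlations of their deviations from the group means were 0.0107, 0.0115 and -0.0334 in HSCs and 0.0225, -0.0158 and 0.0268 in macrophages. With the replicate block Col1a1 in macrophages passed at -3.35 (edgeR adjusted p = 3.99e-05), and signs turned for Col1a1 in HSCs (-0.55), Ccn1 in macrophages (-3.86) and Ccn3 in macrophages (-0.94). Pairing left the collagen ratio differences at -0.30 and -2.66, with exact sign-flip permutation p = 0.75 and 0.25, the latter the smallest that 3 pairs allow.

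Scaling turned the sign of values near 0. Col1a2 in HSCs was 0.0134 with DESeq2 size factors and with the DESeq2 test, 0.0122 with upper-quartile scaling and 0.0179 with library totals. Col4a1 in macrophages was 0.16 with DESeq2 size factors and the DESeq2 test, 0.12 with upper-quartile scaling, 0.15 with library totals and 0.13 at equal depth.

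Leaving out single libraries turned signs within these ranges of log2 fold change: in HSCs Col1a1 -0.88 to 0.68, Col1a2 -0.49 to 0.36, Col4a1 -0.50 to 0.24, Col4a2 -0.77 to 0.21, Dcn -0.46 to 0.0352 and Ccn3 -0.41 to 1.03. In macrophages the ranges were Col4a1 -0.17 to 0.24, Col4a2 -0.0939 to 0.43, Lum -1.05 to 0.0148, Ccn2 -0.10 to 1.27, Ccn1 -5.72 to 0.69, Ccn6 -1.32 to 3.09 and Ccn3 -7.85 to 1.39. The genotype difference in the share of macrophage reads taken by the 10 genes ran from -0.0742 to 0.0956 percentage points without single libraries. The collagen ratio of macrophages kept its sign in all alternatives, from -3.30 to -1.77. With 3 libraries in a group no exact permutation p can go below 0.1, and at the depth of the Cre positive macrophage libraries, levels under 0.522 to 1.08 CPM were not detectable.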
